A study of Caenorhabditis elegans with 12 samples.

Results

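The heterochronic genes of Caenorhabditis elegans set which developmental programme a cell runs at which time, and mutations in them make larval cells skip or repeat stages. The levels of 9 of them, lin-14, lin-28, lin-41, hbl-1, lin-42, lin-46, lin-29, dre-1 and blmp-1, were followed through the embryo in the presence and absence of the miR-51 family. The genes were taken by name, and all 9 were found by WormBase identifier among the 20362 genes counted in each library. A total of 8 had 20 or more counts over the 12 libraries and were tested. The other, lin-29, had 19 reads in all and was not tested.

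The groups compared were miR-51Fam null embryos (strain MLC1800) and wild-type embryos (N2), at 3 stages (190-cell, bean, 2-fold). Each group had 2 libraries of 50 embryos grown at 20 °C. Missing from the null strain are the genes mir-51 to mir-56, through the alleles nDf67 and n4100 on chromosome IV and nDf58 on chromosome X. In the study's strain list it also carries lucEx1057, an extrachromosomal array with a fosmid holding the miR-54 cluster, marked with ttx-3::gfp and mir-35p::gfp, and how embryos without the array were picked is not given in the sources used here. Embryos were collected at the 2-cell stage from bleached hermaphrodites and left to reach each stage, and polyadenylated RNA was read by QuantSeq, which gives a short read near the 3′ end of a transcript. The study's supplement describes the libraries as independent duplicates. The labels do not say whether that means separate cultures, so the p-values measure only the spread between these libraries, which may be technical.

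In the larval pathway the proteins of the early side, LIN-14, LIN-28, HBL-1 and LIN-41, hold cells in young fates, and small RNAs of the lin-4 and let-7 families lower them as larvae age. LIN-46 and LIN-42 work on the timing of these steps, BLMP-1 and the ubiquitin ligase subunit DRE-1 act in the later larval transitions, and LIN-29 drives the switch to adult epidermis. The miR-51 family is a separate microRNA family that belongs to the deeply conserved miR-100 group, and whether its loss moves the timing genes in the embryo is the question this comparison addresses.

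Levels are given in CPM, which is a gene's reads for every 1000000 in the library after TMM scaling in edgeR. CPM from 3′ reads is not divided by gene length, so it serves to compare libraries for 1 gene. The deposited totals ran between 887059 and 9558104 assigned reads in 11 libraries and came to 11081 in null 190-cell replicate 1, where 1 read of a gene equals 40.7 CPM. Reads may copy the same molecule, and the estimated number of reads per molecule was 1.09 in that library and 3.68 to 56.8 in the other 11. A level of 3 estimated molecules summed over a group was taken as the floor under which a gene could not be told from absent. It stood at 21.4 CPM in null 190-cell, 9.39 CPM in null bean and 12.4 CPM in null 2-fold embryos, against 8.07, 8.49 and 7.50 CPM in wild-type embryos of the same stages. Floors cover counting error only. In whole embryos, fewer expressing cells and less RNA per cell cannot be told apart.

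Tissue and stage markers were present in both genotypes. The cuticle collagen gene dpy-7 had 0 reads in all 4 of the 190-cell libraries and 299 to 1261 CPM in the other 8, and the gut regulator end-1 had reads in 3 of the 4 of the 190-cell libraries and in 1 later library. The body muscle genes unc-54 and pat-10 differed between the wild-type 190-cell libraries. In replicate 1, unc-54 had 94.7 CPM, above both wild-type bean libraries (31.9 and 44.3 CPM), and pat-10 had 147 CPM. In replicate 2 they had 9.55 and 16.7 CPM. In null 190-cell libraries unc-54 had 0 reads, and pat-10 had 81.5 and 2.25 CPM, from 2 and 4 reads. Of the markers listed, end-3 had 0 reads in every library. Some embryonic tissue lists differed between the genotypes. Summed gut markers were lower in null 2-fold libraries, at 28.6 and 21.5 CPM against 78.3 and 59.5 CPM in wild type. Summed body muscle markers were higher in null bean libraries (772.5 and 869.7 against 557.5 and 573.3 CPM) and overlapped at the 2-fold stage. The epidermal gene che-14 had 225 and 162 CPM in null and 75.0 and 30.3 CPM in wild-type 2-fold libraries. Genes known from the adult intestine, germ line and late cuticle also differed. The summed level of the 5 yolk genes vit-2 to vit-6, made in the adult intestine, lay between 0 and 40.8 CPM in null libraries and between 160 and 3946 CPM in wild-type libraries. The summed level of 4 germ line and maternal genes (pie-1, nos-2, pgl-1, glp-1) lay between 0 and 186 CPM in null libraries and between 208 and 850.2 CPM in wild-type libraries. Of 3 larval and adult cuticle genes, col-19, rol-6 and bli-1 all had 0 reads in null libraries, and their sum was 10.9 to 72.8 CPM in wild-type libraries. That sum was mainly col-19. In wild type, bli-1 had 10 reads, all in 2-fold replicate 2, and rol-6 had 1 read in bean replicate 2 and 6 in 2-fold replicate 2. Of 4 sperm genes, none had a read in a null library and 3 had reads in wild-type 2-fold replicate 2 alone, with a sum of 7.28 CPM. Their part in the differences between genotypes was not tested beyond a fit with the yolk level as a covariate.

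Between stages, every member that passed the test was higher at the later stage, and no member passed in the other direction. All calls are edgeR quasi-likelihood tests at an adjusted p under 0.05 over 12062 genes. At the bean stage against the 190-cell stage 2 of 8 members were higher in null embryos (dre-1 and blmp-1), where 4.63% of all genes tested were higher and 5.31% changed in either direction. The same comparison in wild type gave 2 of 8 (lin-28 and blmp-1), where 4.18% of all genes were higher and 5.02% changed in either direction. From the 190-cell to the 2-fold stage 3 of 8 members (hbl-1, dre-1, blmp-1) were higher in null embryos, against 9.94% of all genes higher and 16.2% changed in either direction. The same 3 members of 8 were higher in wild type, against 10.2% of all genes higher and 14.3% changed in either direction. From the bean to the 2-fold stage no member passed in null embryos, where 8.91% of all genes changed, or in wild type, where 4.35% did. The unadjusted p was under 0.05 for 2 members (hbl-1 and lin-41) in null and for 3 (hbl-1, lin-42, dre-1) in wild type in that step. Over all 12062 genes it was under 0.05 for 2715 in null and 1830 in wild type.

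**Figure D1:**
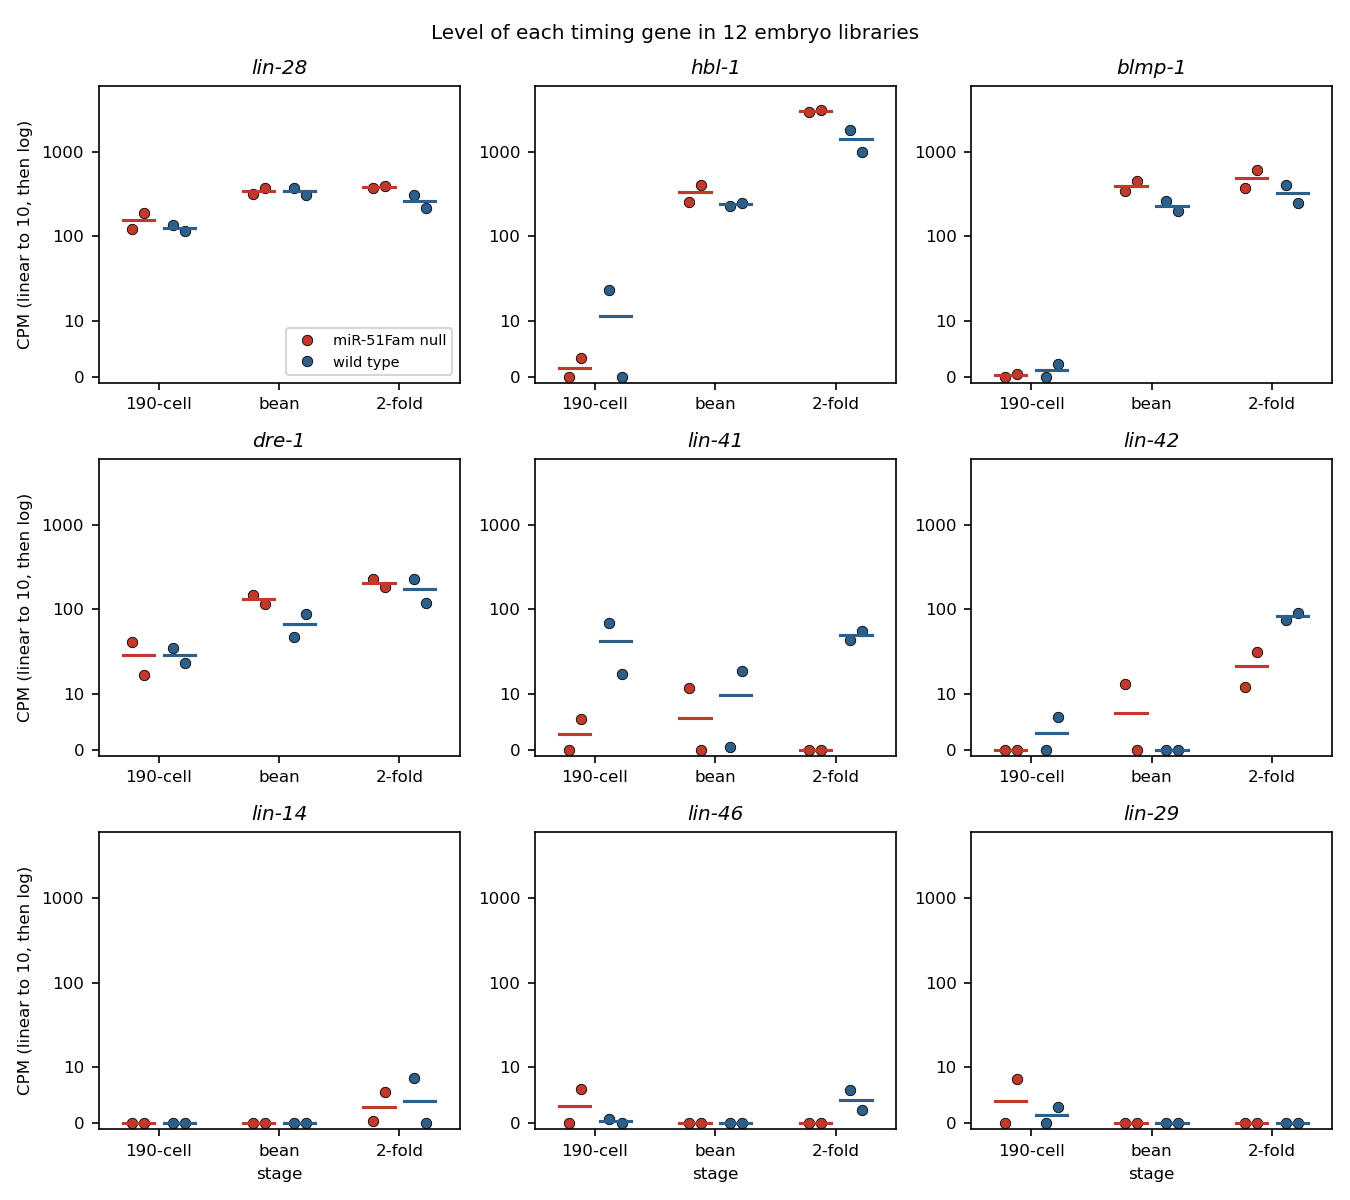
CPM of the 9 timing genes by stage (horizontal axis) on a vertical axis that is linear to 10 CPM and logarithmic above, with a point per library, a bar at the mean of the 2 libraries, miR-51Fam null in red and wild type in blue. hbl-1 reached 2948 and 3114 CPM in null and 1809 and 983 CPM in wild-type 2-fold embryos, while lin-14, lin-46 and lin-29 stayed under 10 CPM in all 12 libraries.

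Between genotypes, 1 of 8 members passed the test, and only lin-41 did. At the 190-cell stage none passed, where 0.216% of all genes tested did, and at the bean stage none passed, where 0.0663% did. The unadjusted p in edgeR was under 0.05 for 0 members in 190-cell and for 1 (lin-42) in bean embryos, and DESeq2 called 0 members at either stage. Of all 12062 genes, 855 in 190-cell and 877 in bean embryos had an unadjusted p under 0.05 in edgeR. In 2-fold embryos lin-41 was lower in null, where 1.77% of all genes were lower and 2.16% changed in either direction. On average over the 3 stages lin-41 was again the member called, lower in null embryos, where 3.59% of all genes were lower and 4.52% changed in either direction. A genotype effect that changed with stage was called for no member, where 0.464% of all genes were called. Its unadjusted p was under 0.05 for lin-41 and lin-42, and for 815 of all 12062 genes.

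Of the early-side genes, hbl-1, which encodes a zinc finger transcription factor related to fly Hunchback, was close to unread at the 190-cell stage and was read in all 4 libraries of the 2-fold stage. The gene lies on chromosome X at 5822142 to 5827755 (WBcel235, plus strand), with an annotated 3′ UTR of up to 1394 bases. At the 190-cell stage it had 0 and 3.37 CPM in null libraries and 22.9 and 0 CPM in wild-type libraries, so 2 of the 4 libraries had no read and null was under the floor. In bean embryos it had 257 and 407 CPM in null libraries and 231 and 248 CPM in wild-type libraries, with null higher. At the 2-fold stage it had 2948 and 3114 CPM in null libraries and 1809 and 983 CPM in wild-type libraries, with both null libraries above both wild-type ones.

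The change in hbl-1 between the 190-cell and 2-fold stages passed the test in both genotypes, with a fitted log2 fold change of 9.83 ± 1.80 (SE) in null (adjusted p = 0.0103, edgeR) and 6.79 ± 1.28 in wild type (adjusted p = 0.0121, edgeR). All libraries of the later stage were above all of the earlier one in each genotype. The call was lost without null 190-cell replicate 1 (adjusted p = 0.0501, edgeR) or replicate 2 (adjusted p = 0.514, edgeR) in null embryos, and without wild-type 2-fold replicate 1 (adjusted p = 0.0613, edgeR) in wild type. The separate steps did not pass, at 6.64 ± 1.74 to the bean stage and 3.19 ± 1.07 from bean to 2-fold in null (adjusted p = 0.0948 and 0.131, edgeR), and 4.24 ± 1.15 and 2.54 ± 1.04 in wild type (adjusted p = 0.117 and 0.314, edgeR). These calls depended on the processing. The steps to the bean stage were called in 9 of 22 alternatives in each genotype, and those from bean to 2-fold in 8 of 22 in null and 7 of 22 in wild type. All 4 steps were called on molecule-scaled counts, with the yolk covariate and without the robust option of edgeR, where the adjusted p lay between 0.00015 and 0.0128. The 190-cell levels rest on 6 reads in null, all in replicate 2, and on 111 reads in wild type, all in replicate 1.

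The mean level of hbl-1 at the 2-fold stage was 3031 ± 117 CPM in null and 1396 ± 584 CPM in wild type (SD, n = 2 each), a ratio of 2.17. The fitted log2 fold change of 1.12 ± 0.99 did not pass (adjusted p = 0.812, edgeR). It passed when the fit held only the 4 libraries of that stage (log2 fold change 1.15, adjusted p = 0.0371, edgeR) and in none of the other 21 alternatives. At the bean stage the genotype difference was 0.47 ± 0.99 and at the 190-cell stage it was -1.92 ± 1.65 on the log2 scale (adjusted p = 1 and 0.976, edgeR). The test of a genotype effect that changed with stage did not pass for hbl-1 (adjusted p = 1, edgeR), but did with the yolk covariate (0.00394) and without wild-type 190-cell replicate 2 (0.00985).

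**Figure D2:**
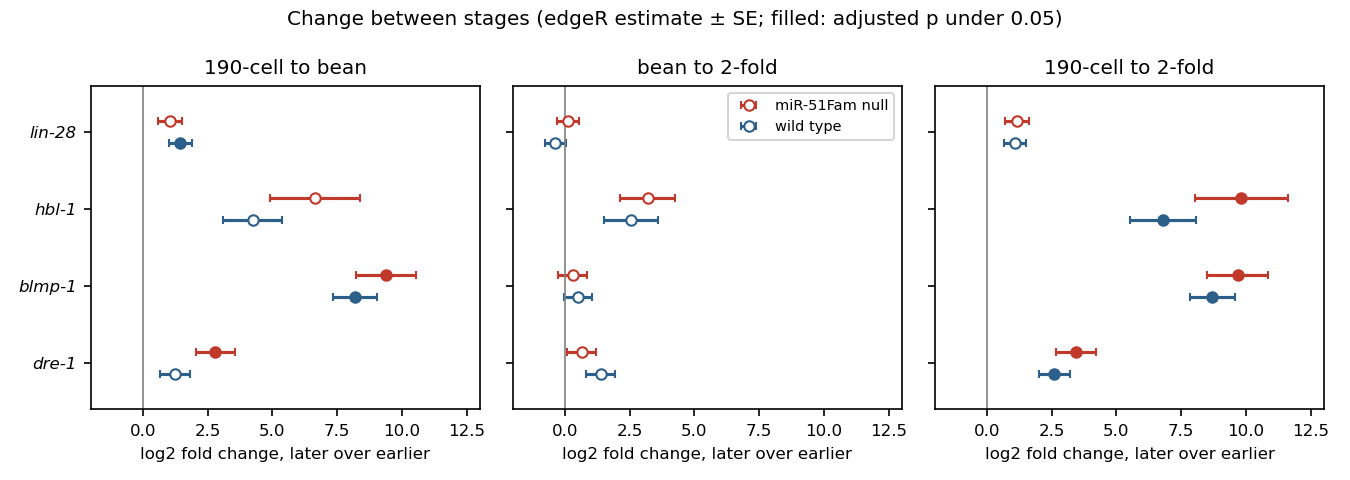
Fitted log2 fold change of 4 timing genes between stages (later over earlier, horizontal axis; bars are the SE), with miR-51Fam null in red above wild type in blue and filled points where the adjusted p of edgeR was under 0.05. blmp-1 passed to the bean stage in both genotypes (9.38 in null and 8.20 in wild type), and no gene passed between the bean and 2-fold stages.

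lin-28 encodes an RNA-binding protein that blocks maturation of the let-7 microRNA, and it was read in all 12 libraries. The gene lies on chromosome I at 8407630 to 8410804 (minus strand, 3′ UTR of up to 531 bases), and its 3′ end shares 16 bases with F02E9.1 on the plus strand. The strand setting of the counting is not stated, so reads in that overlap cannot be assigned with certainty. The 190-cell levels were 122 and 188 CPM in null libraries and 136 and 115 CPM in wild-type libraries, the 122 CPM resting on 3 reads. At the bean stage it had 319 and 376 CPM in null libraries and 374 and 310.3 CPM in wild-type libraries. The 2-fold levels were 368 and 389 CPM in null libraries and 309.7 and 218 CPM in wild-type libraries. The genotypes overlapped at the first 2 of these stages, and at the 2-fold stage both null libraries were higher.

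The rise of lin-28 to the bean stage was 2.73-fold between the means in wild type, with a log2 fold change of 1.44 ± 0.43 that passed the test narrowly (adjusted p = 0.0442, edgeR). In null embryos the ratio of the means was 2.24 and the log2 fold change of 1.03 ± 0.46 did not pass (adjusted p = 0.271, edgeR). The wild-type call held under 11 of 22 alternatives. It was lost without either wild-type 190-cell library (adjusted p = 0.0815 without replicate 1 and 0.163 without replicate 2, edgeR), without either wild-type bean library (0.237 and 0.0706), without wild-type 2-fold replicate 1 (0.0654) or without null 2-fold replicate 2 (0.0660), and with the yolk covariate (0.270). From the bean to the 2-fold stage the log2 fold change was 0.12 ± 0.42 in null and -0.37 ± 0.42 in wild type (adjusted p = 0.969 and 0.739, edgeR). The 190-cell to 2-fold change was 1.16 ± 0.47 in null and 1.07 ± 0.42 in wild type on the log2 scale. Neither passed (adjusted p = 0.0912 and 0.0966, edgeR). All 2-fold libraries were above all 190-cell ones in each genotype. That change was called in 3 of 22 alternatives in null and 13 of 22 in wild type. The genotype difference of lin-28 was 0.43 ± 0.46 in 190-cell, 0.02 ± 0.42 in bean and 0.52 ± 0.42 in 2-fold embryos, with adjusted p of 1, 1 and 0.723 in edgeR.

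lin-41 encodes a TRIM-NHL RNA-binding protein that is a target of let-7 in larvae and also acts in the oocytes of the adult germ line. The gene lies on chromosome I at 9334800 to 9342496 (minus strand), with a 3′ UTR of up to 1165 bases. In 190-cell embryos it had 0 and 5.62 CPM in null libraries and 68.2 and 17.3 CPM in wild-type libraries. The bean levels were 11.6 and 0 CPM in null libraries and 0.613 and 18.9 CPM in wild-type libraries, which overlapped. By the 2-fold stage it had no read in either null library and 43.1 and 55.8 CPM in wild-type libraries, an estimated 7.59 and 12.5 molecules. In null embryos the lower level at the 2-fold stage did not pass (adjusted p = 0.0685 from bean and 0.0614 from 190-cell, edgeR). It was called in 4 and 7 of 22 alternatives, though every null mean was under the floor. In wild type these changes did not pass either (adjusted p = 0.545 and 0.992, edgeR).

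Set against the floor, lin-41 was at least 3.99-fold lower in null 2-fold embryos than in wild-type ones, and the difference passed the test (adjusted p = 0.0343, edgeR). The average over the stages also passed (log2 fold change -4.68, adjusted p = 0.0254, edgeR). The size of that value rests on null means that were all under the floor. They came from 10 reads in 190-cell, 22 in bean and 0 in 2-fold embryos. The lin-41 differences at the 190-cell and bean stages were -3.07 ± 2.10 and -0.80 ± 1.68 on the log2 scale, and neither passed (adjusted p = 0.897 and 1, edgeR). The 2-fold call was lost without any 1 of 4 null libraries, at an adjusted p of 0.0809 in edgeR without 190-cell replicate 1 or replicate 2, 0.145 without 2-fold replicate 1 and 0.273 without 2-fold replicate 2. The average was no longer called without null 190-cell replicate 1 (adjusted p = 0.0993, edgeR) or replicate 2 (0.230), null 2-fold replicate 2 (0.0891), wild-type 190-cell replicate 1 (0.0688) or wild-type bean replicate 2 (0.202).

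The genotype difference in lin-41 came with lower yolk and germ line genes in null embryos. In 2-fold embryos the summed yolk genes were at 0 and 0.268 CPM in null libraries and at 930.5 and 3045 CPM in wild-type libraries, and the germ line and maternal genes at 71.0 and 40.0 CPM in null and 208 and 574 CPM in wild type. Of the 5 yolk genes, vit-3, vit-4 and vit-5 had 0 reads in null 2-fold embryos. On average over the stages, all 5 yolk genes and 3 of the 4 germ line and maternal genes (pie-1, pgl-1, glp-1) were lower in null embryos at the same threshold. Of all genes tested, 3.59% were lower in that comparison. With the log2 yolk level of each library as a covariate, lin-41 was no longer called at the 2-fold stage (log2 fold change -1.63, adjusted p = 1, edgeR), and on average its sign turned (1.34, adjusted p = 1, edgeR). Yolk level and genotype do not overlap in these libraries, so they cannot be told apart. Over all genes, that fit called 41 between genotypes at the 2-fold stage in place of 260, and 8 in place of 545 on average. A call lost in it is therefore not particular to lin-41. In wild type, lin-41 was highest in 190-cell replicate 1 and in both 2-fold libraries, which also held the highest yolk sums (3946, 930.5 and 3045 CPM), but the order did not hold below that. Bean replicate 1, with the lowest lin-41, had a yolk sum of 232 CPM, and bean replicate 2, with the lowest wild-type yolk sum at 160 CPM, had 18.9 CPM of lin-41, near the 17.3 CPM of 190-cell replicate 2 at a yolk sum of 504 CPM. The lowest germ line and maternal sum in wild type, 208 CPM, was in 2-fold replicate 1, where lin-41 had 43.1 CPM. Bean replicate 1 had a sum of 398 CPM with 0.613 CPM of lin-41. These wild-type libraries also differ in stage, and a link between lin-41 and the yolk or germ line sums was not tested within wild type.

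**Figure D3:**
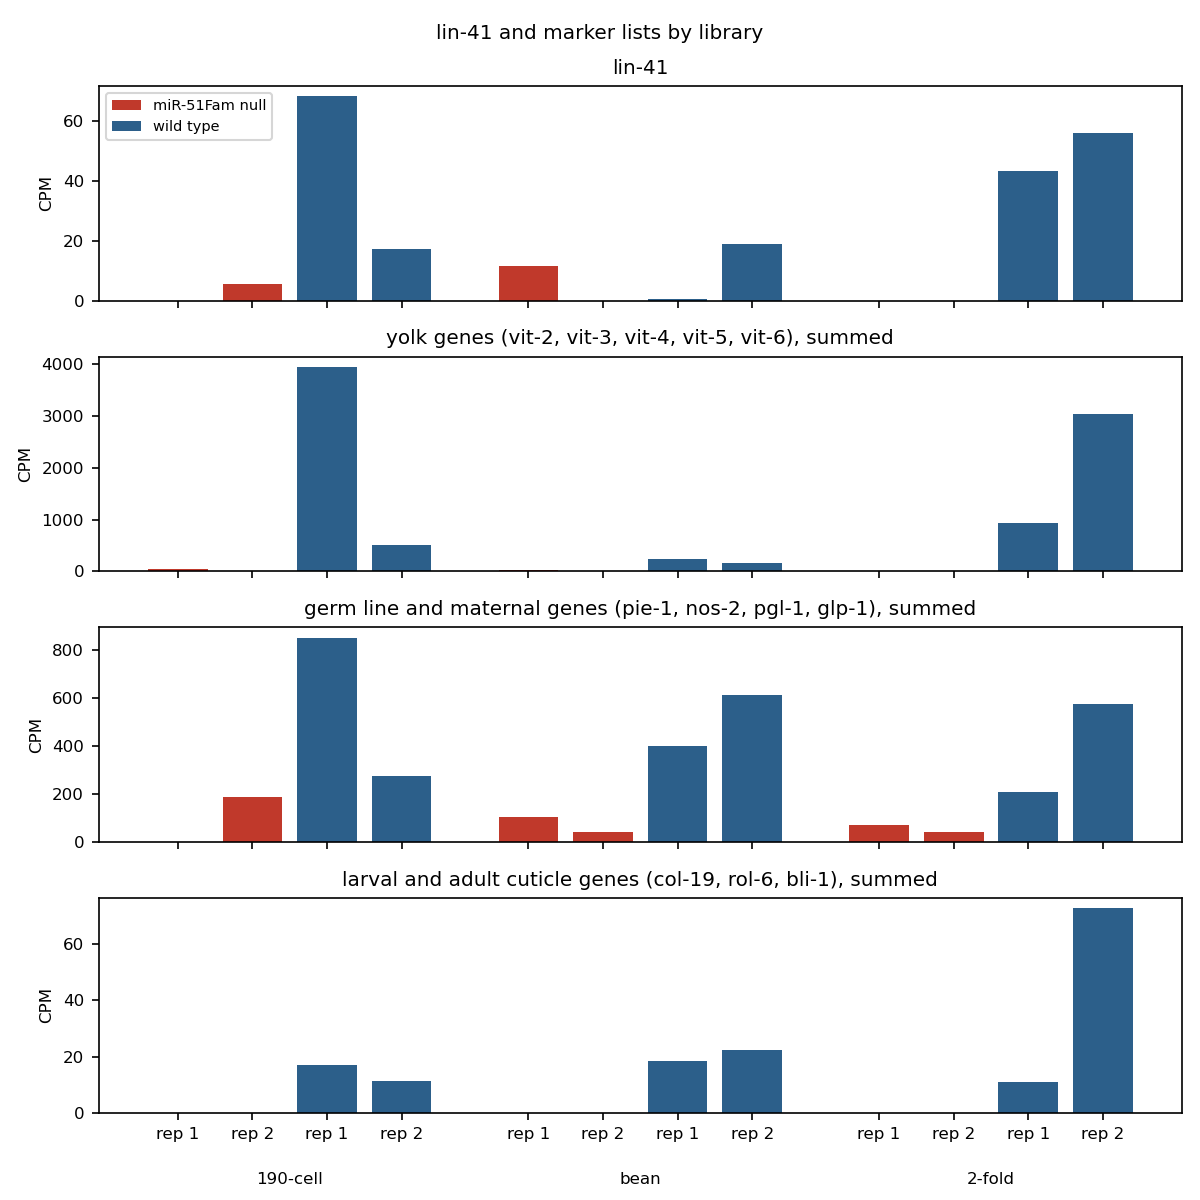
CPM of lin-41 (top) and summed CPM of 3 marker lists (yolk, germ line and maternal, larval and adult cuticle) in each of the 12 libraries, grouped by stage with miR-51Fam null in red left of wild type in blue. The yolk and cuticle sums did not overlap between genotypes (0 to 40.8 against 160 to 3946 CPM for yolk), and lin-41 had no read in null 2-fold libraries.

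lin-14, the transcription factor gene at the head of the larval pathway, was almost unread. It lies on chromosome X at 11465560 to 11485871 (plus strand), with a 3′ UTR of up to 1604 bases, the longest of the 9. It had 0 reads in all 8 libraries of the 190-cell and bean stages. In 2-fold embryos it had 0.447 and 5.50 CPM in null libraries and 8.06 and 0 CPM in wild-type libraries, which overlapped and had means under the floor. No change of lin-14 could be detected at this depth.

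Among the genes that time these steps, lin-42 encodes a protein related to the Period clock proteins and was read mainly at the 2-fold stage. It lies on chromosome II at 1233236 to 1252359 (minus strand, 7 annotated transcripts), and QuantSeq does not separate transcripts that share a 3′ end. It had 0 reads in both null libraries and 0 and 5.97 CPM in wild-type libraries at the 190-cell stage. By the bean stage it had 13.2 and 0 CPM in null libraries and no read in wild type. At the 2-fold stage it had 12.1 and 31.3 CPM in null libraries and 75.8 and 91.0 CPM in wild-type libraries, with both null libraries lower. The mean was 21.7 ± 13.6 CPM in null and 83.4 ± 10.7 CPM in wild-type 2-fold embryos (SD, n = 2 each), a ratio of 0.260, and the log2 fold change of -1.94 ± 1.84 did not pass the test (adjusted p = 0.820, edgeR). The sign of that difference turned in 1 of 22 alternatives (4.02).

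In wild type lin-42 was at least 9.82-fold higher at the 2-fold than at the bean stage by the floor, but the test just missed (adjusted p = 0.0630, edgeR). That step was called in 11 of 22 alternatives, with adjusted p between 8.42e-05 and 0.354. In null embryos the same step was 1.75 ± 1.86 on the log2 scale (adjusted p = 0.628, edgeR) and was called in 1 of 22.

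lin-46, which encodes a gephyrin-related protein that opposes LIN-28 and HBL-1 activity, lies on chromosome V at 12968855 to 12970730 (plus strand, 3′ UTR of 153 bases, the shortest of the 9). It had reads in 4 of 12 libraries. These were 1 null library, 190-cell replicate 2 with 6.18 CPM, and 3 wild-type libraries, 190-cell replicate 1 with 0.824 CPM and the 2-fold pair with 5.92 and 2.43 CPM. All group means were under the floor, and no difference was detectable at this depth.

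Of the genes of the later transitions, blmp-1 rose between the 190-cell and bean stages in both genotypes. It encodes a zinc finger transcription factor related to vertebrate BLIMP1 and lies on chromosome I at 10409302 to 10414773 (plus strand, 3′ UTR of up to 927 bases). At the 190-cell stage it had 0 and 0.562 CPM in null libraries and 0 and 2.39 CPM in wild-type libraries, from 1 and 4 reads, under the floor in both. In bean embryos it had 344 and 452 CPM in null libraries and 260.4 and 201 CPM in wild-type libraries, with null higher. The 2-fold levels were 372 and 603 CPM in null libraries and 406 and 245 CPM in wild-type libraries, which overlapped.

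The step of blmp-1 to the bean stage was 9.38 ± 1.17 on the log2 scale in null (adjusted p = 1.53e-05, edgeR) and 8.20 ± 0.85 in wild type (adjusted p = 5.35e-07, edgeR). The size of both rests on the 1 and 4 reads of the earlier stage. The wild-type call held under all 22 alternatives, and the null call under 21, failing without null 190-cell replicate 2 (adjusted p = 0.653, edgeR), which leaves only the shallow library at that stage. The change to the 2-fold stage was 9.68 ± 1.17 in null and 8.70 ± 0.86 in wild type (adjusted p = 2.22e-06 and 7.54e-08, edgeR), and the null call was again lost without that library (adjusted p = 0.283, edgeR). Between bean and 2-fold the changes of 0.29 ± 0.55 in null and 0.50 ± 0.55 in wild type did not pass (adjusted p = 0.851 and 0.729, edgeR). The genotype difference was 0.79 ± 0.56 at the bean stage and 0.58 ± 0.55 at the 2-fold stage (adjusted p = 0.776 and 0.818, edgeR).

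dre-1 encodes the F-box subunit of a ubiquitin ligase of which BLMP-1 is a known substrate. It lies on chromosome V at 6533614 to 6546500 (minus strand, 3′ UTR of up to 376 bases). The 190-cell levels were 40.7 and 16.9 CPM in null libraries and 34.6 and 23.3 CPM in wild-type libraries, the 40.7 CPM being 1 read. At the bean stage it had 147 and 116 CPM in null libraries and 47.8 and 88.2 CPM in wild-type libraries, with both null libraries higher. By the 2-fold stage it had 228 and 184 CPM in null libraries and 230.1 and 120.2 CPM in wild-type libraries, which overlapped.

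The step of dre-1 to the bean stage passed in null (2.79 ± 0.76, adjusted p = 0.0250, edgeR) and not in wild type (1.22 ± 0.57, adjusted p = 0.341, edgeR). The test of a genotype effect that differs between stages did not pass for dre-1 (adjusted p = 0.988, edgeR), so the steps are not shown to differ. The null step was lost without 190-cell replicate 2 (log2 fold change 1.33, adjusted p = 1, edgeR) or bean replicate 1 (adjusted p = 0.0550). Between the 190-cell and 2-fold stages dre-1 was 3.44 ± 0.77 higher in null and 2.59 ± 0.59 higher in wild type on the log2 scale (adjusted p = 0.00200 and 0.00248, edgeR). The null call was lost without 190-cell replicate 2 (adjusted p = 0.660, edgeR) and the wild-type call without 2-fold replicate 1 (adjusted p = 0.0762, edgeR). The genotype difference was 0.95 ± 0.56 at the bean stage and 0.23 ± 0.56 at the 2-fold stage (adjusted p = 0.764 and 1, edgeR).

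**Figure D4:**
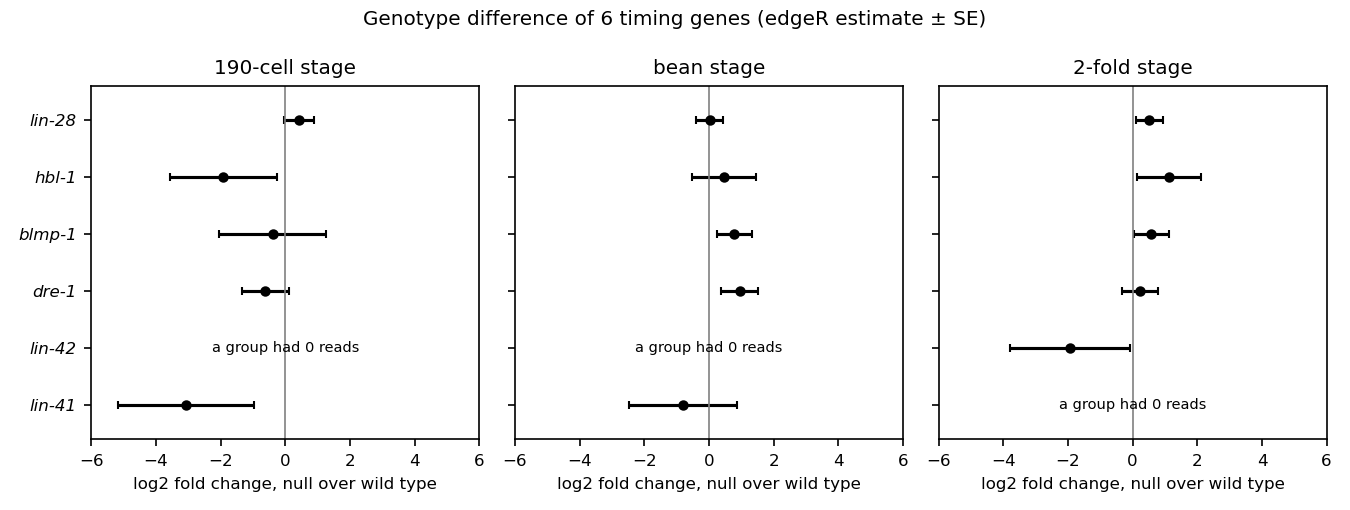
Fitted log2 fold change of null over wild type (horizontal axis, bars are the SE) for 6 timing genes at each stage, with no estimate drawn where a group had 0 reads. The estimates for hbl-1, blmp-1, dre-1 and lin-28 at the bean and 2-fold stages lay between 0.02 and 1.12, and none of them passed the test.

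lin-29, the zinc finger gene that drives the adult epidermal programme, had reads in 2 of 12 libraries. These were 7.86 CPM in null 190-cell replicate 2 and 2.98 CPM in wild-type 190-cell replicate 2, with no read in the 8 libraries of the bean and 2-fold stages. It lies on chromosome II at 11917642 to 11935343 (minus strand) and shares 2 bases with hmg-12 on the opposite strand.

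The patterns of the members over the embryo were compared with each other and with those of all other genes. Over the 11 libraries other than the shallowest, which share stages and genotypes, the Pearson correlation of log2(CPM + 1) between hbl-1 and dre-1 was 0.93, and between hbl-1 and blmp-1 it was 0.88. lin-28 had 0.89 with blmp-1 and -0.64 with lin-41. Of 6173 genes with a mean of 20 CPM or more, those most like blmp-1 were act-4, an actin gene (0.99), the cuticle gene dpy-14 (0.99) and C37E2.2 (0.99). hbl-1 was most like the cuticle collagen gene dpy-2 (0.99), K10D3.4 (0.98) and txt-14 (0.98), and dre-1 most like ttbk-7, gldi-7 and daam-1 (0.97 each). lin-28 was most like nlr-1 (0.96), dep-1 (0.95) and nhr-127 (0.95), and lin-42 most like nmgp-1 (0.95), the troponin I gene tni-4 (0.95) and F31D4.5 (0.94). lin-41, at a mean of 20.1 CPM, was most like WBGene00021206 (0.94), F56C9.6 (0.92) and let-99 (0.91), a gene with a maternal role in spindle positioning of the early embryo. These values describe the libraries and carry no test.

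A wider list of 28 timing genes and their partners held 27 that were counted, of which 22 passed the filter. Between genotypes 1 of 22 was called in 2-fold embryos, where 2.16% of all genes tested were, 3 were called on average, where 4.52% were, and none was called earlier. lin-66, a gene that lowers lin-28 in larvae, was the only one called higher in null. It had 244 and 508 CPM in null libraries and 194 and 288 CPM in wild-type libraries at the 190-cell stage, 301 and 345 CPM in null and 225 and 176 CPM in wild-type libraries at the bean stage, and 389 and 407 CPM in null and 145 and 142.003 CPM in wild-type libraries at the 2-fold stage. Both null libraries were higher at the bean and 2-fold stages. The average log2 fold change was 0.98 ± 0.25 (adjusted p = 0.0215, edgeR). The call was lost without null 190-cell replicate 2 (adjusted p = 0.138, edgeR) or null 2-fold replicate 2 (0.0532), and with the yolk covariate the value was -0.02 (adjusted p = 1, edgeR).

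tim-1, related to fly timeless and known in worms for chromosome cohesion, was lower in null at the 2-fold stage. It had no read in either null library and 21.7 and 14.6 CPM in wild-type libraries (adjusted p = 0.000435, edgeR), while at the bean stage it had 36.96 and 37.6 CPM in null libraries and 36.1 and 15.9 CPM in wild-type libraries. In 190-cell embryos it had 81.5 and 71.9 CPM in null libraries and 145 and 94.9 CPM in wild-type libraries. The 2-fold call was lost on molecule-scaled counts (adjusted p = 0.222), with only the 4 libraries of that stage (0.146) and with the yolk covariate (0.290), all in edgeR. The adult cuticle collagen gene col-19, a target of LIN-29, had 0 reads in all 6 null libraries and 10.9 to 53.4 CPM in the 6 wild-type libraries, and was lower on average (adjusted p = 0.00326, edgeR). The col-19 call was lost without null 190-cell replicate 2 (adjusted p = 0.0762, edgeR) and with the yolk covariate (adjusted p = 1, edgeR).

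Between stages the counts for this list lay near the shares over all genes. At the bean stage against the 190-cell stage 1 of the 22 was called in each genotype, where 5.31% of all genes were in null and 5.02% in wild type, and it was apl-1, an amyloid precursor gene whose epidermal expression is under heterochronic control in larvae. apl-1 had 40.7 and 17.4, then 534 and 615, then 630 and 620.2 CPM over the 3 stages in null libraries, and 8.65 and 47.1, then 317 and 436, then 1035 and 577 CPM in wild-type libraries. Its step to the bean stage was 4.92 ± 0.78 in null and 3.81 ± 0.60 in wild type on the log2 scale (adjusted p = 0.000435 and 0.000289, edgeR). The wild-type step was called in all 22 alternatives, and the null step was lost without null 190-cell replicate 2 (adjusted p = 0.867, edgeR). From the 190-cell to the 2-fold stage 4 of the 22 were called in null (apl-1 and the moulting receptor gene nhr-23 higher, tim-1 and the Argonaute gene alg-2 lower) and 3 in wild type (apl-1 higher, tim-1 and the nuclear receptor gene nhr-25 lower), where 16.2% of all genes changed in null and 14.3% in wild type. Without null 190-cell replicate 2 the null calls of apl-1 (adjusted p = 0.457, edgeR), nhr-23 (0.609) and alg-2 (0.326) were lost. The alg-2 call was also lost without null 2-fold replicate 1 (0.107) and with the yolk covariate (0.0573), and the nhr-23 call without null 2-fold replicate 2 (0.0843). In null 190-cell embryos nhr-23 had a mean of 3.09 CPM, under the floor of 21.4 CPM. In null 2-fold embryos alg-2 had a mean of 12.36 CPM, at the floor of 12.41 CPM, and tim-1 had no read. In wild type the tim-1 change was called in 15 of 22 alternatives and was lost without any 1 of the 4 libraries it compares (adjusted p between 0.0595 and 0.259, edgeR). From the bean to the 2-fold stage 1 was called in null (tim-1, lower), where 8.91% of all genes changed, and 1 in wild type (nhr-25, lower), where 4.35% did. nhr-25 had 0 and 2.43 CPM in wild-type 2-fold libraries, from 2 reads and under the floor, and 25.7 and 36.4 CPM in wild-type bean libraries (log2 fold change -5.79 ± 1.38, adjusted p = 0.0102, edgeR). That call was lost without wild-type 2-fold replicate 1 (log2 fold change -3.65, adjusted p = 0.315, edgeR) and with only the 6 wild-type libraries (0.0506).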

How the data were processed

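QuantSeq libraries of whole embryos were analysed. The authors extracted molecular identifiers with UMI-tools, trimmed and mapped reads to WBcel235 with STAR, and deposited HTSeq gene counts, not normalised; tool versions, annotation release and strand setting are not given in the sources used here. Their methods describe removal of duplicate reads before counting, but the counts look like reads that can copy a molecule, so reads per molecule were estimated for every library, using genes whose mean CPM elsewhere was 1 to 3. Molecule numbers and floors rest on that estimate. Of the reads, 31.8% to 53.7% were assigned, 4.00% to 8.65% fell in no gene, 0.0472% to 0.0882% were ambiguous and 39.3% to 63.5% mapped to several places. These summary lines were left out.

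Genes with 20 or more counts in total were tested with edgeR 4.0.16 in R 4.3.3 (TMM, a mean for each of 6 groups, robust quasi-likelihood F test) and adjusted by Benjamini-Hochberg over 12062 genes. The SE is the log2 fold change over the root of F, and is not given where a group had 0 reads. Alternatives were DESeq2 1.42.0, other scalings and filters, molecule-scaled counts, a replicate block, fits to fewer libraries and each library left out. An edgeR fit without the robust option and one with log2 of the summed yolk CPM plus 1 as a covariate were chosen after seeing the data. Scripts were tested on simulated data. Positions are those of the Ensembl annotation of WBcel235. The members and gene lists were chosen with earlier results of these data known. Named genes are the members, the called genes of the wider list and, for each member with a mean of 20 CPM or more in 11 libraries, the 3 genes with the highest correlation. lep-2 of the wider list and microRNA seed matches were not analysed here.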

Additional observations from a re-analysis of the deposited data

Results flagged for a closer look

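tim-1 was the only gene of the wider list whose genotype effect differed between the stages by the interaction test of edgeR (adjusted p = 0.00899), and no member passed that test. Its log2 fold change of null over wild type was -0.68 ± 0.89 in 190-cell and 0.52 ± 0.81 in bean embryos. In 2-fold embryos it had no read in null, against 144 reads and an estimated 7.08 molecules in wild type. The wild-type mean at that stage was 18.1 CPM, close to the floor of 12.4 CPM for null embryos, and its lower library had 14.6 CPM. The interaction call held under 19 of 21 alternatives and was lost without null 2-fold replicate 2 (adjusted p = 0.142) and on molecule-scaled counts (adjusted p = 1). Groups of 2 libraries are too small for a check of single outlying samples.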

How the results depend on the processing

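The 12 changes called among the members gave 263 values over the same alternative fits, at most 22 for each change. Of these values, 231 kept direction and call, 31 kept direction only and 1 turned round. That 1 was lin-41 averaged over the stages with the yolk covariate (1.34), and in the wider list lin-66 also turned there (-0.024). At the 2-fold stage the number of members called between genotypes was 1 and became 0 under the filterByExpr filter, 2 with only the 4 libraries of that stage and 0 with the yolk covariate, which also gave 0 for the average and 1 (hbl-1, adjusted p = 0.00394, edgeR) for a genotype effect that changed with stage. For the change to the bean stage in wild type it was 2, and became 1 with TMMwsp scaling and 3 with the DESeq2 test and on molecule-scaled counts, where hbl-1 was gained. For that step in null it was 2, and became 3 with hbl-1 under the DESeq2 test, the replicate block, molecule-scaled counts, only the 6 libraries of the genotype, no robust option and the yolk covariate. For bean to 2-fold in wild type it was 0, and became 1 with DESeq2 size factors, with no filter, with the DESeq2 test, with only the 6 libraries of the genotype and with the yolk covariate, and 2 on molecule-scaled counts and without the robust option. For that step in null it was 0, and became 1 with no filter, on molecule-scaled counts, with only the 6 libraries of the genotype, without the robust option and with the yolk covariate. For 190-cell to 2-fold it was 3 in both genotypes, and became 5 in wild type with no filter and on molecule-scaled counts, and in null 6 with no filter and 5 with the DESeq2 test.

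Leaving out a library gave 0 to 1 members between genotypes in 190-cell, 2-fold and averaged embryos, 0 in bean embryos and 0 to 1 for the difference between stages. For 190-cell to bean it gave 0 to 3 in null and 1 to 3 in wild type, for bean to 2-fold 0 to 2 in both, and for 190-cell to 2-fold 0 to 5 in null and 1 to 5 in wild type. hbl-1 accounted for 3 single calls, without wild-type 190-cell replicate 2 at the 190-cell stage (log2 fold change -2.74) and for the difference between stages (adjusted p = 0.00985, edgeR), and without wild-type 190-cell replicate 1 on average (2.56). lin-41 was called for the difference between stages without null bean replicate 2 (adjusted p = 0.0430, edgeR). dre-1 was called from bean to 2-fold in wild type with DESeq2 size factors (adjusted p = 0.0493).

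No pairing of the libraries by replicate number was seen. Correlations of same-numbered deviations lay between -0.18 and 0.14 over 15 pairs of groups, with 1 over 0.1. With 2 libraries a group, this check could miss a pairing. With the replicate block the members called from bean to 2-fold were 2 in null and 2 in wild type, and from 190-cell to 2-fold 5 in null and 4 in wild type, where lin-42 was gained (adjusted p = 0.0358, edgeR). From 190-cell to bean hbl-1 was gained in null (1.87e-17) and in wild type (1.25e-17), and lin-28 lost its call in wild type (0.0593).

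Between genotypes 26 genes were called in 190-cell embryos (0 to 218 over the alternatives), 8 in bean (1 to 173), 260 in 2-fold (41 to 522) and 545 on average (8 to 890). The lowest values in 2-fold embryos (41) and on average (8) came from the fit with the yolk covariate. The difference between stages was called for 56 (13 to 269). Between stages 641 genes in null (91 to 938) and 606 in wild type (417 to 864) changed to the bean stage, 1075 (708 to 1545) and 525 (233 to 1195) from bean to 2-fold, and 1957 (307 to 2448) and 1730 (956 to 2511) from 190-cell to 2-fold. The median log2 fold change of all genes for bean to 2-fold in wild type was 0.19, and 0.55 with DESeq2 size factors, which raised the share of called genes that were higher from 72.6% to 83.1%, and in null from 50.2% to 66.7%. With TMMwsp the share was 62.3% for that step in wild type, and 59.2% in place of 71% for 190-cell to 2-fold in wild type. DESeq2 size factors also moved the median from 0 to 0.24 for bean to 2-fold in null, and for 190-cell to 2-fold from 0.45 to 0.75 in null and from 0.23 to 0.64 in wild type. With 2 libraries a group and 11081 reads in 1 of them, lin-14, lin-46 and lin-29 were below what could be detected.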
